A study of Mus musculus with 8 samples.

Results

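The antioxidant, glutathione and NADPH genes of pancreatic islets were compared between βUCP2Tg mice and wild-type (WT) mice. The group holds 43 genes chosen by name, by a rule that uses no measured value but was written with earlier results of these data known, from 26894 genes with a symbol on the array. Each gene was represented by its probe with the highest mean over the 8 arrays, and 42 of the 43 were tested, against 17857 genes tested overall when each has a single probe. βUCP2Tg mice carry a mouse *Ucp2* cDNA under the rat insulin promoter, which is active in β-cells, and the WT mice were the controls without it. UCP2 is a carrier of the inner mitochondrial membrane, named uncoupling protein for its likeness to UCP1, and whether it uncouples respiration in β-cells is debated. Islets of male mice aged 8 to 12 weeks by the study's methods were kept for 8 h with 200 mg/dL glucose in both groups, and RNA of 4 βUCP2Tg and 4 WT samples was hybridised, each to an array of its own. The labels do not say whether a sample held islets of a single mouse, so that SD and p refer to samples.

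Superoxide made by mitochondria is turned into hydrogen peroxide by superoxide dismutases, and the peroxide is then removed by catalase, glutathione peroxidases and peroxiredoxins. Catalase needs no donor for this, whereas the peroxidases and peroxiredoxins draw electrons mainly from glutathione or thioredoxin. Both are kept reduced by NADPH, which the pentose phosphate pathway and a few mitochondrial enzymes supply. The transcription factor NRF2, encoded by *Nfe2l2* and held back by KEAP1, turns on many of these genes through the antioxidant response element. β-cells are known for low levels of catalase and glutathione peroxidase.

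The core of the antioxidant response element was searched as TGACNNNGC on both strands in the 250 bases before the annotated start of each gene, in RefSeq promoters of the build GRCm38.p6. Overlap with other motifs was not examined. Of the members, 36 were matched to a promoter, and 7 of them (19.4%) held the core in at least 1 promoter, namely *Nfe2l2*, *Sod1*, *Prdx1*, *Txnrd1*, *Gclm*, *G6pdx* and *Mgst1*. Among all genes of the table the share was 11.5%, and among all promoters it was 10.2%. A match gives the letters only, and elements of this kind also lie far outside such a window. The 4 promoters below are shown because they carry the same core beside log2 fold changes of 0.37 (*Gclm*), 0.31 (*G6pdx*), -0.25 (*Txnrd1*) and -0.01 (*Prdx1*), none of them called. They are written 5′ to 3′ along the gene and end at the base before the start, and capitals mark the core, which lies on the opposite strand in each.
*Gclm*, chr3:122245307-122245556, plus strand: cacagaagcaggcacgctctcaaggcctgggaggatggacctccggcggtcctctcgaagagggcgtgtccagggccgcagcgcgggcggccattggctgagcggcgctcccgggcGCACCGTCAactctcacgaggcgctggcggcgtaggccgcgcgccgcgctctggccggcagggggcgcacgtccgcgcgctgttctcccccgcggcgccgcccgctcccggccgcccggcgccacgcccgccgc
*G6pdx*, chrX:74428881-74429130, minus strand: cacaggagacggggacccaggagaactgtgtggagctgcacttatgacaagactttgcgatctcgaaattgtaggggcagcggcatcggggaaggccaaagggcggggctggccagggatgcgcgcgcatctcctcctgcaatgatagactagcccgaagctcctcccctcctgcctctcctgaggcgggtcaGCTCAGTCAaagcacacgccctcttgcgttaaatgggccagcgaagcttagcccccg
*Txnrd1*, chr10:82858956-82859205, plus strand: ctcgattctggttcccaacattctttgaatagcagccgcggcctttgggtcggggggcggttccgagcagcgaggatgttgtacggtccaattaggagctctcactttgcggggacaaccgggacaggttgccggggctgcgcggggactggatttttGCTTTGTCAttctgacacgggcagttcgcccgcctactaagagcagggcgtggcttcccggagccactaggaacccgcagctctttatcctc
*Prdx1*, chr4:116685349-116685598, plus strand: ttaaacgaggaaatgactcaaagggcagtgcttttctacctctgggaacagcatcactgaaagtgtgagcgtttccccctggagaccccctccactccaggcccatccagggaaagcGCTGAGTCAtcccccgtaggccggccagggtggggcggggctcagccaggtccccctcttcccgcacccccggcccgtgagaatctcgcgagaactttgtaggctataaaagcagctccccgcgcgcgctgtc

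Values are log2 signals set against the 75th percentile of their array, so that a probe at 0 is as bright as that percentile. Fold changes are differences of these values, βUCP2Tg minus WT. Probes have different binding strengths, so levels are compared between arrays and not between genes. βUCP2Tg and WT were compared by limma over 35363 probes, those measured above background on 4 or more arrays. A call needed a Benjamini-Hochberg adjusted p under 0.05 together with a change of over 1.5-fold. *Ucp2* was higher on every βUCP2Tg array (6.99 to 7.71) than on any WT array (0.92 to 1.46). The 10 β-cell markers were well above background on all 8 arrays. Other cells in the samples differed between arrays within both groups. The mean of 20 tested acinar genes was -1.50, 0.06, -1.01 and 2.66 on βUCP2Tg replicates 1 to 4 and 1.81, 2.83, 3.27 and -1.05 on WT replicates 1 to 4, and 19 or 20 of the 21 listed were above background on each array. On βUCP2Tg replicate 3, all 22 genes of a hepatocyte list chosen after the data were seen were above background (12 to 14 on the other arrays), and 17 of them were highest there. In whole islets, fewer cells of a type and less RNA per cell cannot be told apart.

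No member was called in either direction, whereas 0.41% of all probes were. The smallest adjusted p by limma among the members was 0.0663, for *Gstp1*. At an unadjusted p under 0.05, 7 members (16.7% of those tested) were higher and 3 (7.14%) were lower in βUCP2Tg islets. Over all probes tested these shares were 9.99% higher and 15.2% lower, and over 1 probe per gene they were 12.9% and 11.6%. The 4 βUCP2Tg arrays lay entirely above the 4 WT arrays for 4 members (9.52%) and entirely below them for 2 members (4.76%). The same held for 5.25% and 7.17% of all probes, and for 6.36% and 6.73% of genes with 1 probe each. These member counts are small and lie near the shares of genes with 1 probe each. The median log2 fold change of the members was 0.10, with 26 positive and 16 negative, beside 0.03 over all genes and -0.02 over all probes. The full range ran from -1.18 (*Hmox1*) to 1.48 (*Mgst1*), and both of these genes varied widely within a group.

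**Figure D1:**
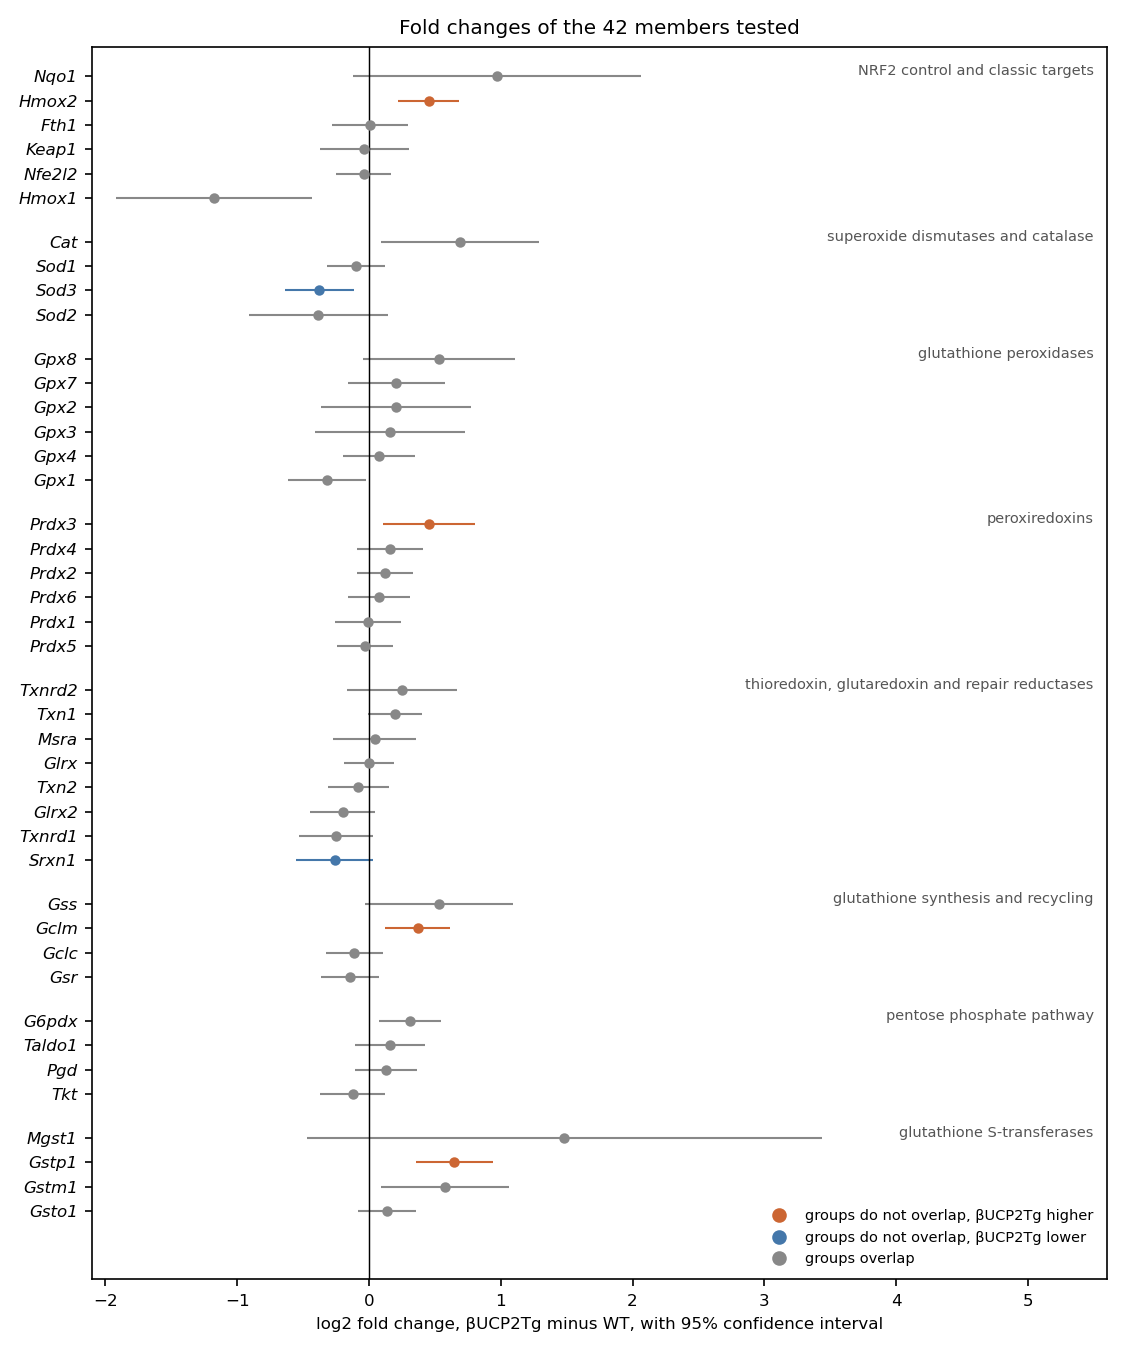
Log2 fold change (βUCP2Tg minus WT, horizontal axis) with its 95% confidence interval from limma for the 42 members tested, grouped by role (n = 4 arrays per group). Orange and blue points mark the 4 members whose βUCP2Tg arrays were all higher and the 2 whose βUCP2Tg arrays were all lower than the WT arrays. Among the marked members the interval of *Srxn1* crosses 0, as do most intervals of the unmarked members.

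**Figure D2:**
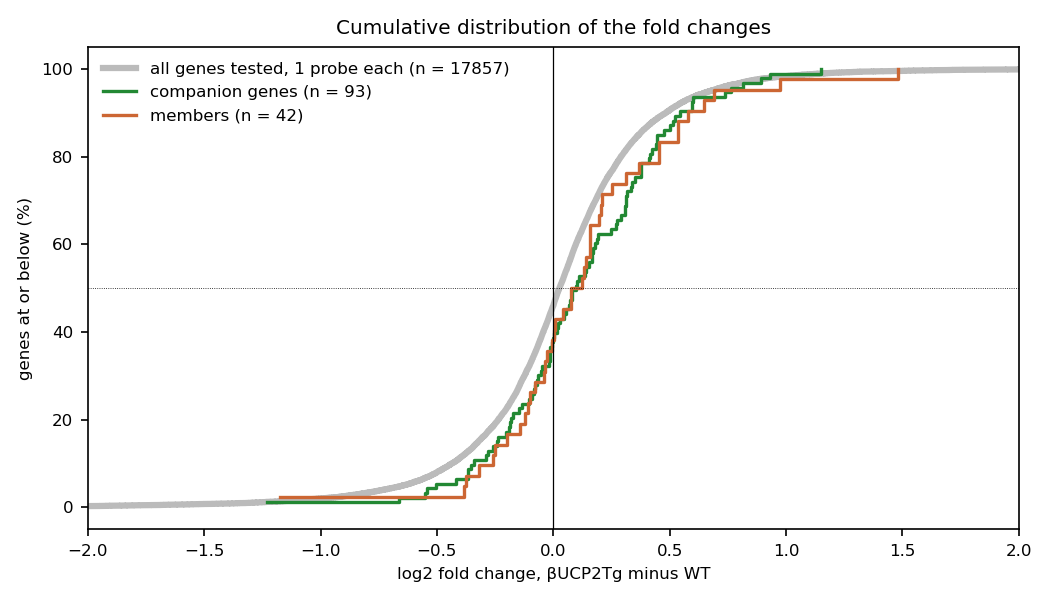
Share of genes (vertical axis, %) at or below each log2 fold change (horizontal axis) for 17857 genes with 1 probe each, 93 companion genes and 42 members. The member curve crosses 50% at 0.10 and lies slightly right of the curve of all genes, which crosses at 0.03.

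*Nfe2l2*, the gene for NRF2 itself, did not differ beyond the spread of the arrays. Its signal was 1.80, 2.04, 2.02 and 1.97 on βUCP2Tg replicates 1 to 4 and 1.92, 2.02, 2.04 and 2.03 on WT replicates 1 to 4. The values of both groups interleaved, and βUCP2Tg replicate 1 was the lowest. The log2 fold change was -0.04 (95% confidence interval -0.25 to 0.16, adjusted p = 0.802 by limma), and its sign turned with the setting, for example to 0.02 when arrays were scaled to their median. A second, dimmer *Nfe2l2* probe gave 0.11. *Keap1*, the gene for the adaptor that marks NRF2 for breakdown, gave -0.04 (95% confidence interval -0.37 to 0.30).

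Known targets of NRF2 had fold changes of both signs, and none was called. *Hmox1* encodes the inducible heme oxygenase, which also responds to hypoxia and heme. Its signal was 3.31, 3.32, 3.39 and 4.27 in βUCP2Tg islets, in the order of the replicates, and 3.93, 5.13, 4.75 and 5.18 in WT islets. βUCP2Tg replicates 1 to 3 were lowest, and βUCP2Tg replicate 4 lay above WT replicate 1, so that the groups overlapped. Its log2 fold change was -1.18 (SE 0.32), or 2.26-fold higher in WT, at an adjusted p of 0.0992 by limma. Without βUCP2Tg replicate 4 it was -1.41 (adjusted p = 0.0446 by limma) and without WT replicate 1 it was -1.45 (adjusted p = 0.0188), and each of these would be called, beside 4.18% and 10.8% of all probes in the same fits. With any other array left out it was not called (-1.18 to -1.03, adjusted p up to 0.264 by limma). The mean of 20 hypoxia response genes, a list without *Hmox1*, was 1.02, 1.00, 0.99 and 2.16 on the βUCP2Tg arrays and 1.65, 2.56, 2.56 and 2.58 on the WT arrays. The same 2 arrays thus lay between the rest for both measures (two-sided exact permutation test of the hypoxia mean, p = 0.0571), and the part of hypoxia in the *Hmox1* difference was not tested.

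*Hmox2*, the constitutive heme oxygenase, had a fold change of the other sign. Its signal was 2.94, 3.19, 3.10 and 2.91 in βUCP2Tg islets and 2.44, 2.62, 2.65 and 2.61 in WT islets. Every βUCP2Tg array was higher than every WT array. This gave a log2 fold change of 0.45 (SE 0.10, 1.37-fold, adjusted p = 0.0801 by limma), and a second probe gave 0.44, again without overlap.

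*Nqo1*, a quinone reductase that uses NADPH or NADH and is a standard readout of NRF2, had a signal of -1.11, -1.52, -1.26 and -3.05 in βUCP2Tg islets. In WT islets it was -1.83, -3.30, -3.11 and -2.60. βUCP2Tg replicates 1 to 3 were above all WT arrays, while βUCP2Tg replicate 4 was below WT replicates 1 and 4. The log2 fold change of 0.97 (95% confidence interval -0.12 to 2.07) had an adjusted p of 0.239 by limma. *Fth1*, the heavy chain of the iron store ferritin, gave 0.01 (95% confidence interval -0.28 to 0.29), although its signal is high and pseudogene transcripts could add to it.

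**Figure D3:**
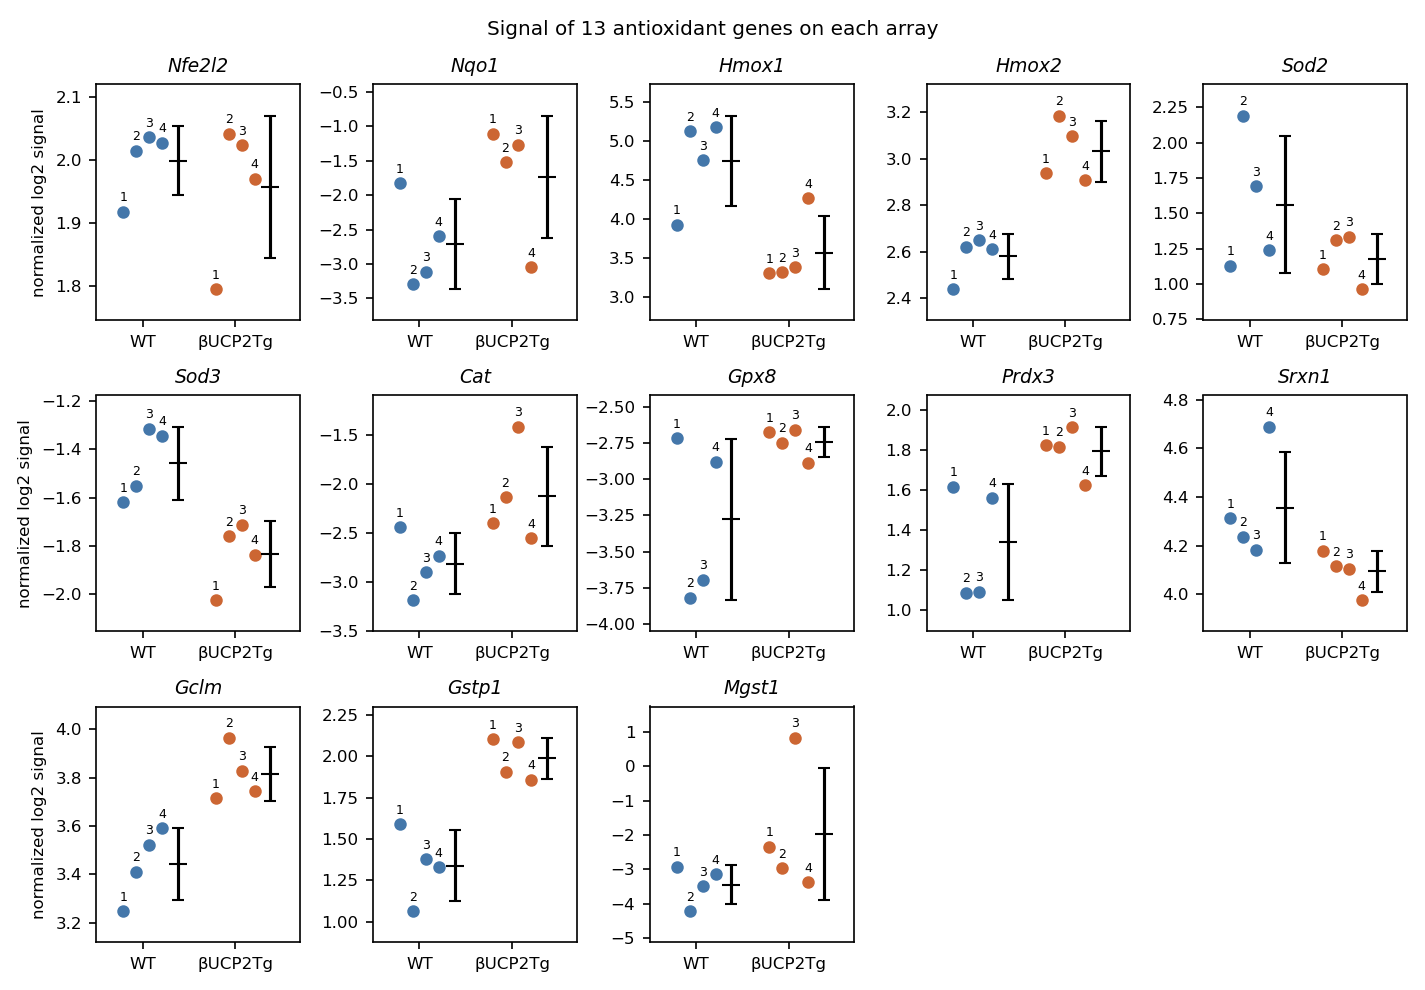
Normalized log2 signal (vertical axis, own scale in each panel) of 13 members on the WT arrays (blue) and the βUCP2Tg arrays (orange), numbered by replicate, with mean ± SD of the 4 arrays in black. *Hmox2*, *Prdx3*, *Gclm* and *Gstp1* were higher on all βUCP2Tg arrays, *Sod3* and *Srxn1* lower, and a single βUCP2Tg array lay apart from the other βUCP2Tg arrays for *Mgst1*, *Hmox1* and *Nqo1*.

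Of the superoxide dismutases, the mitochondrial one was lower on average, with groups that overlapped. *Sod2* had signals of 1.10, 1.31, 1.33 and 0.96 in βUCP2Tg islets and 1.13, 2.19, 1.69 and 1.24 in WT islets. WT replicates 2 and 3 were high, and WT replicates 1 and 4 lay inside the βUCP2Tg range. The log2 fold change was -0.38 (SE 0.23, adjusted p = 0.327 by limma), and it was -0.18 without WT replicate 2. *Sod1*, the cytosolic enzyme, gave -0.10 (95% confidence interval -0.32 to 0.12) at its bright probe and -0.44 (95% confidence interval -0.77 to -0.10, adjusted p = 0.128 by limma) at a dim one.

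*Sod3*, the secreted dismutase, was at -2.02, -1.76, -1.71 and -1.84 in βUCP2Tg islets and at -1.62, -1.55, -1.31 and -1.34 in WT islets. All βUCP2Tg arrays were below all WT arrays, with a gap of less than the SD of either group between the nearest values. Its log2 fold change was -0.38 (SE 0.11, adjusted p = 0.111 by limma), which equals 1.30-fold higher in WT.

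*Cat*, which encodes catalase, had a low signal of -2.40, -2.13, -1.42 and -2.55 in βUCP2Tg islets and -2.44, -3.18, -2.90 and -2.73 in WT islets. βUCP2Tg replicate 3 was highest, and the groups overlapped at WT replicate 1. Between the groups, the log2 fold change was 0.69 (SE 0.26, adjusted p = 0.157 by limma). Without βUCP2Tg replicate 3, the array with hepatocyte transcripts, it was 0.45 (adjusted p = 0.288). Liver is rich in catalase, and the part of liver RNA in this value was not tested.

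Among the 6 glutathione peroxidases, 5 had positive fold changes (0.08 to 0.53) and only *Gpx1* was negative. Single arrays set some of these values, since without WT replicate 1 *Gpx3* and *Gpx4* turned to -0.08 and -0.02, and without WT replicate 2 *Gpx2* was 0.03 and *Gpx8* 0.35. *Gpx1*, the general cytosolic enzyme, had signals of 4.40 to 4.47 on the βUCP2Tg arrays, an SD of 0.04, against 4.41, 5.01, 4.81 and 4.82 on the WT arrays. WT replicate 1 lay with the βUCP2Tg arrays, and the other WT arrays were above them. Its log2 fold change was -0.32 (adjusted p = 0.176 by limma). Without WT replicate 1 it was -0.44, with an adjusted p of 0.0252 and a fold change under 1.5.

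*Gpx8*, a peroxidase of the endoplasmic reticulum, was at -2.68, -2.75, -2.66 and -2.89 in βUCP2Tg islets and at -2.72, -3.82, -3.69 and -2.88 in WT islets. WT replicates 1 and 4 lay within the βUCP2Tg range, and WT replicates 2 and 3 lay below it. Its log2 fold change was 0.53 (adjusted p = 0.224 by limma). *Gpx7*, also of the endoplasmic reticulum, gave 0.21, and 0.37 without WT replicate 4. *Gpx2*, known from the gut, gave 0.20 and *Gpx3*, the secreted plasma enzyme, gave 0.16. *Gpx4*, which reduces lipid peroxides, gave 0.08 (95% confidence interval -0.19 to 0.35).

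The peroxiredoxins ranged from -0.03 to 0.45, with *Prdx3* apart from the rest. *Prdx3* encodes the mitochondrial peroxiredoxin. It had signals of 1.82, 1.82, 1.91 and 1.62 in βUCP2Tg islets and 1.62, 1.09, 1.09 and 1.56 in WT islets. The groups did not overlap, but βUCP2Tg replicate 4 and WT replicate 1 were equal to 2 decimals. A log2 fold change of 0.45 was found (SE 0.15, adjusted p = 0.128 by limma). *Prdx4* of the endoplasmic reticulum gave 0.16, *Prdx2* 0.12 and *Prdx6* 0.07, and *Prdx1* and *Prdx5* gave -0.01 and -0.03, with intervals no wider than -0.26 to 0.25 for these last genes.

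Of the members, 7 were listed by name for a mitochondrial protein (*Sod2*, *Prdx3*, *Prdx5*, *Txn2*, *Txnrd2*, *Glrx2* and *Gpx4*). The list is not limited to proteins confined to mitochondria. It leaves out those of *Gpx1*, *Sod1* and *Gsr*, which are found there in part. The 7 listed members split into 3 positive and 4 negative fold changes, with a median of -0.03. However, the signs of *Glrx2* and *Txnrd2* depended on the probe. Those of *Gpx4* (-0.02 without WT replicate 1) and *Prdx5* (0.03 without WT replicate 4) depended on single arrays. The 6 members of the endoplasmic reticulum or the secreted space (*Sod3*, *Gpx3*, *Gpx7*, *Gpx8*, *Prdx4* and *Mgst1*) had 5 positive fold changes and a median of 0.18. Of these, *Gpx3* turned to -0.08 without WT replicate 1, and a second *Prdx4* probe gave -0.16. *Mgst1* fell from 1.48 to 0.55 without βUCP2Tg replicate 3. Neither set held a called gene.

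In the thioredoxin system the fold changes lay between -0.26 and 0.25. *Srxn1* encodes sulfiredoxin, which repairs overoxidised peroxiredoxins and is a target of NRF2. Its signal was 4.18, 4.12, 4.10 and 3.98 in βUCP2Tg islets and 4.31, 4.24, 4.18 and 4.69 in WT islets. All WT arrays were higher, although WT replicate 3 (4.1837) and βUCP2Tg replicate 1 (4.1785) were equal to 2 decimals. Its log2 fold change was -0.26 (SE 0.13, adjusted p = 0.235 by limma), and -0.15 without WT replicate 4. *Txn1*, cytosolic thioredoxin, gave 0.20 and *Txn2*, its mitochondrial counterpart, -0.08. *Txnrd1* and *Txnrd2*, the cytosolic and mitochondrial reductases, gave -0.25 and 0.25. With each array left out, *Txnrd2* ranged from 0.12 to 0.41. *Glrx* and *Glrx2*, the glutaredoxins, gave 0.00 and -0.20 (0.19 at a second *Glrx2* probe), and *Msra*, a methionine sulfoxide reductase, 0.04.

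Several members had a dimmer probe that gave another size or sign. Of 19 members with more than 1 probe tested, 10 had probes whose log2 fold changes lay over 0.3 apart (*Glrx2*, *Msra*, *Prdx1*, *Prdx4*, *Prdx6*, *Sod1*, *Tkt*, *Txn2*, *Txnrd1* and *Txnrd2*). Fold changes of both signs were found for 8, namely *Nfe2l2* and those of the 10 other than *Sod1*, *Txn2* and *Txnrd1*. None of these probes was called. *Prdx6*, for example, ranged from -0.55 at its dimmest probe to 0.07 at its brightest, and *Txnrd2* from -0.01 to 0.34. For *Txnrd1*, both probes are described as detecting the same RefSeq transcript. The second was at 3.06 to 3.26 on the βUCP2Tg arrays and 3.55 to 3.97 on the WT arrays, without overlap, with a difference of -0.65 (adjusted p = 0.0517 by limma) against -0.25 at the first. For *Txn2*, the brightest probe and the next one, both for the same RefSeq transcript, gave -0.08 and -0.03. Another, much dimmer *Txn2* probe, described by an Ensembl transcript, gave -0.68 (adjusted p = 0.067 by limma) without overlap, at -2.85 to -2.41 on the βUCP2Tg arrays and -2.23 to -1.81 on the WT arrays. For *Glrx2*, 2 probes for the same RefSeq transcript, both above background on all 8 arrays, gave -0.20 and 0.19, and the groups overlapped at each. The first, used for the gene, holds runs of 20 bases that recur in 16 other probes of the array table and 58 RefSeq promoters, so that other transcripts could add to its signal, which was not tested. The second *Glrx2* probe shares none. *Msra* gave 0.04 and -0.68, the latter at a probe for an Ensembl transcript whose signal was only -5.58 to -4.22. By contrast, paired probes gave similar values for *Gss* (0.53 and 0.52) and for *Gstm1* (0.58 and 0.73). The first 30 of the 60 bases are shown for probes of *Txnrd1*, *Txn2*, *Msra* and *Glrx2*, disagreeing pairs of the thioredoxin and glutaredoxin group, each pair with the probe used for the gene first, because the value reported depends on which probe is used. Why they differ was not tested.
A_51_P320614 (*Txnrd1*): cctttcaagtctgccagtctctgagatcag
A_55_P2740574 (*Txnrd1*): aatttgacaagaaagtgctggtcttggatt
A_55_P1960231 (*Txn2*): ggtccctgagcaggaggaggagctgtgaac
A_55_P2023572 (*Txn2*): cgtacattgcagtgtgatcctcggccgctg
A_55_P2496630 (*Msra*): caggagtgaccttaatgaattctaacattc
A_55_P2729278 (*Msra*): ttcagggtctgcctataaagtgaattcaag
A_55_P2106078 (*Glrx2*): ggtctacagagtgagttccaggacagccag
A_66_P112815 (*Glrx2*): ggacactcacaggcttcacaaagaagggaa

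Neither subunit of glutamate-cysteine ligase, the rate-limiting enzyme of glutathione synthesis, was called, and the difference between the subunits was not tested. *Gclm*, the modifier subunit, had signals of 3.72, 3.97, 3.83 and 3.75 in βUCP2Tg islets and 3.25, 3.41, 3.52 and 3.59 in WT islets. Every βUCP2Tg array was above every WT array, for a log2 fold change of 0.37 (SE 0.11, 1.29-fold, adjusted p = 0.106 by limma). *Gclc*, the catalytic subunit, gave -0.11 (95% confidence interval -0.32 to 0.10), and its groups overlapped. *Gss*, glutathione synthetase, gave 0.53 (adjusted p = 0.216), with high values on βUCP2Tg replicates 1 to 3 and on WT replicate 1. *Gsr*, the reductase that restores glutathione from its oxidised form with NADPH, gave -0.14 (95% confidence interval -0.36 to 0.08).

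The pentose phosphate pathway gave small values. *G6pdx*, which encodes the first, NADPH-forming enzyme, was at 1.84 to 2.07 in βUCP2Tg islets and at 1.67, 1.55, 1.56 and 1.85 in WT islets. WT replicate 4 narrowly exceeded βUCP2Tg replicate 4, and the other arrays separated. For this gene the log2 fold change was 0.31 (SE 0.10, adjusted p = 0.123 by limma). *Pgd*, the next NADPH-forming enzyme, gave 0.13, and of the enzymes that rearrange sugars *Taldo1* gave 0.16 and *Tkt* -0.12.

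Glutathione S-transferases, which couple glutathione to reactive compounds, had the highest median of the role groups, 0.61, with 4 of 4 positive. *Gstp1* had signals of 2.10, 1.91, 2.09 and 1.86 in βUCP2Tg islets and 1.59, 1.06, 1.38 and 1.33 in WT islets. The groups were separated by more than the SD of either, for a log2 fold change of 0.65 (SE 0.13, 1.57-fold, adjusted p = 0.0663 by limma). It was 0.69 without βUCP2Tg replicate 4 (adjusted p = 0.0426 by limma) and 0.73 without WT replicate 1 (adjusted p = 0.0163), and each of these would be called, where 4.18% and 10.8% of all probes were. In the 6 other fits with an array left out it was not called (0.56 to 0.68, adjusted p up to 0.209 by limma). Mouse *Gstp1* has a near-identical neighbouring copy whose transcript a probe may also bind.

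*Gstm1*, of the mu class, was at 3.66, 3.56, 3.42 and 2.98 in βUCP2Tg islets and at 3.22, 2.52, 2.54 and 3.02 in WT islets. The groups overlapped through βUCP2Tg replicate 4, and the log2 fold change was 0.58 (adjusted p = 0.147 by limma). At its second probe, 0.73 was measured without overlap (adjusted p = 0.0663). *Gsto1*, of the omega class, gave 0.14. *Gsta4*, which clears lipid aldehydes, was well above background on 1 βUCP2Tg and 1 WT array only and was not tested.

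*Mgst1*, the membrane-bound transferase of liver and other tissues, had the largest fold change of the members and the least certain one. Its signal was -2.35, -2.97, 0.84 and -3.39 in βUCP2Tg islets and -2.93, -4.22, -3.50 and -3.14 in WT islets. βUCP2Tg replicate 3 stood far above all other arrays, which overlapped. The log2 fold change of 1.48 (SE 0.85, adjusted p = 0.309 by limma) became 0.55 (adjusted p = 0.439) without that array. The second *Mgst1* probe was at -0.10 on the same array and between -4.81 and -3.36 on the others. *Alb*, the liver's albumin gene, was at 4.67 there and between -4.68 and -3.65 elsewhere, and the part of liver RNA in the *Mgst1* value was not tested.

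Many members varied across arrays in a shared way. The pattern counted here was chosen after the data were seen, which may raise the shares of members that hold it. For 20 of the 42 (47.6%), WT replicates 2 and 3 both lay below WT replicates 1 and 4, and for 28 (66.7%) βUCP2Tg replicate 4 was the lowest of its group. Both held for 17 members (40.5%), among them *Cat*, *Nqo1*, *Gpx8*, *Prdx3*, *Gss*, *G6pdx*, *Gstm1* and *Mgst1*. Over all genes with 1 probe each, the shares were 38.5%, 41.8% and 24.3%. WT replicates 2 and 3 and βUCP2Tg replicate 4 are 3 of the 4 arrays with the highest acinar means, the fourth being WT replicate 1, and the part of acinar RNA in these values was not tested.

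With βUCP2Tg replicate 4 and WT replicate 1 left out, a choice made after the data were seen, 7 members were called (16.7%), as were 16.0% of all probes. *Nqo1* (1.71), *Cat* (0.95), *Gss* (0.89), *Gstm1* (0.85), *Gstp1* (0.77) and *Prdx3* (0.60) were then higher and *Hmox1* (-1.68) lower in βUCP2Tg islets, at adjusted p between 0.00131 and 0.0449 by limma. Without βUCP2Tg replicate 3 as well, 5 were called (11.9%, beside 10.7% of all probes), and *Cat* and *Prdx3* were not among them. The share of members called was close to that of all probes in both.

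Beyond the members, 105 companion genes of the same pathways were looked up, 104 were found, 93 were tested and none was called by limma. At an unadjusted p under 0.05, 20 of the 93 (21.5%) were higher and 10 (10.8%) were lower, beside 12.9% and 11.6% of genes with 1 probe each and 9.99% and 15.2% of all probes. Of 23 NRF2 partners and further targets, 1 (4.35%) was higher and 5 (21.7%) were lower at an unadjusted p under 0.05. The median log2 fold change of the 23 was -0.05. The higher gene was *Ephx1* (0.82). The lower ones were *Maff* (-1.23), *Mafg* (-0.50), *Bach2* (-0.42), *Slc3a2* (-0.37) and *Bach1* (-0.18), without overlap for *Mafg*, *Slc3a2* and *Bach1*. Partners and targets are pooled here, so that these counts do not give a direction for the targets. *Slc7a11*, the cystine carrier that feeds glutathione synthesis, gave -0.08 (adjusted p = 0.797 by limma). Of 19 genes of NADPH supply and use, 4 (21.1%) were higher and 1 (5.26%) was lower at an unadjusted p under 0.05, with a median of 0.19. There, *Nnt*, the transhydrogenase of the inner mitochondrial membrane, gave -0.29 (adjusted p = 0.275), *Idh2*, mitochondrial isocitrate dehydrogenase, 0.18 (adjusted p = 0.573) and *Me1*, cytosolic malic enzyme, 0.02 (adjusted p = 0.964).

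Of 24 genes of glutathione transfer, breakdown and transport, 9 (37.5%) were higher and none lower at an unadjusted p under 0.05, with a median of 0.34, where 12.9% and 11.6% of genes with 1 probe each were higher and lower. The mean of the 24 was 0.28, 0.26, 0.41 and -0.01 on βUCP2Tg replicates 1 to 4 and -0.02, -0.18, -0.19 and 0.12 on WT replicates 1 to 4. It was thus lowest on WT replicates 2 and 3, where the acinar mean was highest, and highest on βUCP2Tg replicate 3, the array with hepatocyte transcripts, and the part of these cells was not tested. The groups did not overlap for 6 higher genes (25.0%) and 1 lower gene (4.17%), beside 6.36% and 6.73% of genes with 1 probe each. The lower gene was *Chac1* (-0.24, adjusted p = 0.199 by limma), whose enzyme breaks down glutathione. *Gstt1* (0.76), *Gstm3* (0.74) and *Gstm6* (0.59), transferases of the theta and mu classes, had the largest fold changes of the 6 higher genes, at adjusted p between 0.0728 and 0.0891 by limma. Mu class genes are close in sequence, so that their probes may share transcripts. Of 18 genes of the thioredoxin fold, methionine sulfoxide and selenium, 6 (33.3%) were higher and 2 (11.1%) lower at an unadjusted p under 0.05. Among them *Txnip*, the glucose-induced inhibitor of thioredoxin, gave 0.93 (adjusted p = 0.103 by limma). Of 9 NADPH oxidase genes none was higher and 2 (22.2%) were lower at an unadjusted p under 0.05, with a median of -0.09.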

How the data were processed

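Islet RNA of 4 βUCP2Tg and 4 WT samples was measured on one-colour Agilent mouse arrays. The deposited scanner files hold the intensity of each spot after the authors' Feature Extraction had subtracted the background, without scaling between arrays. The authors also deposited a GeneSpring table whose normalized values are log2 intensities shifted to the 75th percentile of each array. It further holds their fold changes and p-values of a moderated t-test, which were not used.

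From the scanner files, control and outlier spots were left out, log2 values were set against the 75th percentile of their array, and spots of a probe were averaged. No spot was saturated. Probes with 50% or more of their spots well above background on 4 or more arrays were tested with limma 3.58.1 (R 4.3.3). Calls needed an adjusted p under 0.05 together with a change of over 1.5-fold. Gene symbols are those of the deposited table, which also gives the probe sequences. For single values the two-sided exact permutation test was used, whose smallest p is 0.0286 with 4 arrays against 4. The fit was run on simulated data with planted changes and noise drawn independently for each probe and array. Such data lack the array patterns that many genes share here, so that their effect on the calls was not tested. Figures were drawn with matplotlib 3.10.9.

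Members, companion genes and marker lists were chosen with earlier results of these data known. Values on every array are given for *Nfe2l2*, *Sod2*, members whose groups do not overlap, and the 5 with the largest fold change and the 5 with the largest SD within groups. *Gpx1*, *G6pdx* and *Gstm1* were added after their values were seen. Companions are named where their groups do not overlap and the fold change is over 1.5, or for their role. Genes of the NRF2 list at an unadjusted p under 0.05 were named after their values were seen. Alternatives were 3 other filters, 3 other scalings, normexp with an offset of 50, the deposited log2 values, kept outlier spots, an intensity trend, the methods' t-test, no fold limit, the mean of a gene's probes, the replicate number as a block, and each array left out in turn. WT and βUCP2Tg arrays lay in different rows of a single slide, so that row and genotype cannot be told apart. Before scaling, the 75th percentile (log2) was 9.00 to 9.16 on the βUCP2Tg arrays and 8.78 to 8.89 on the WT arrays. Scaling each array removes this difference in brightness, which is also confounded with row and genotype. The number of arrays limits the precision.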

Additional observations from a re-analysis of the deposited data

Results flagged for a closer look

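A sample was looked at again where it stood apart from the other 3 of its group by Dixon's gap ratio, the distance to the nearest other sample over the range of the group. Of 84 groups of 4 arrays among the members tested, 4 exceeded the critical value, where 4.2 would by chance. *Hmox1* stood apart on βUCP2Tg replicate 4, at 4.27 against 3.31 to 3.39 on the other βUCP2Tg arrays (gap ratio 0.913). *Gpx3* was low on WT replicate 1, at 3.15 against 4.06 to 4.20 (gap ratio 0.866). *Gpx7* was high on WT replicate 4, at -2.86 against -3.54 to -3.43 (gap ratio 0.841). *Gpx4* was high on βUCP2Tg replicate 2, at 4.85 against 4.70 to 4.73 (gap ratio 0.837).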

How the results depend on the processing

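The median log2 fold change of the members moved by less than 0.103 in all 25 alternatives. This limit was the SD within groups of the members' median per array. *Sod2* (log2 fold change -0.53 to -0.18 with each array left out) and *Ucp2* kept their direction and their side of the threshold in all 25. *Nfe2l2*, never called, turned to 0.0193 with scaling to the median of each array, to 0.0337 with the mean of a gene's probes, and ranged from -0.108 to 0.0127 with 1 to 3 arrays left out. The counts of members called higher and lower, 0 each, became 1 and 1 (*Gstp1* and *Hmox1*) with normexp and by the methods' t-test without adjustment, and 1 and 0 with an intensity trend; after Benjamini-Hochberg the methods' t-test called 0. All probes called rose from 145 (0.41%) to 816 (2.31%), 2832 (8.01%) and 379 (1.07%) in these, and fell to 26 with the adjusted t-test. The share of members called was 4.76% with normexp and by the unadjusted t-test, and 2.38% with an intensity trend. Companion genes called rose from 0 to 5 with normexp (5.38%, beside 2.31% of all probes) and to 7 by the unadjusted t-test (7.53%, beside 8.01%). The mean of a gene's probes left 11 members without overlap (26.2%, beside 13.8% of all genes), against 6 (14.3%, beside 12.4% of all probes). Members at an unadjusted p under 0.05 rose from 10 (23.8%, beside 25.2% of all probes) to 15 (35.7%, beside 26.4% of all genes) with that mean. With an intensity trend there were 14 (33.3%, beside 26.1% of all probes). With each array left out, 0 to 1 members were called higher and 0 to 1 lower. In these fits 7 to 16 members had an unadjusted p under 0.05 (16.7% to 38.1%, beside 16.1% to 35.2% of all probes). The groups did not overlap for 6 to 13 members (14.3% to 31.0%, beside 13.6% to 30%). Of the companions, 0 to 11 were called (up to 11.8%, beside 10.8%). All values at the upper ends came without βUCP2Tg replicate 4 or WT replicate 1. Without WT replicate 4, 10 members did not overlap (23.8%, beside 18.6% of all probes). Over the fits with each array left out, 8 to 3759 probes were called. Without βUCP2Tg replicate 4 and WT replicate 1 (chosen after seeing the data), 6 members were called higher and 1 lower, 17 had an unadjusted p under 0.05 (40.5%, beside 39.5% of all probes), 21 did not overlap (50%, beside 45.1%), and 18 companions were called (19.4%, beside 16.0%). Without βUCP2Tg replicate 3 as well, these counts were 4, 1, 16, 24 and 13, the last 3 being 38.1%, 57.1% and 14.0% beside 33.5%, 54.1% and 10.7% of all probes. Fewer arrays make a lack of overlap more frequent by construction, and the cause of the other changes was not tested. Replicate numbers did not pair the samples (correlations of same-numbered samples 0.44, -0.05, -0.01 and -0.24, and 1 of 4 correlated best with its own number). With the number as a replicate block, 0 members, 0 companions and 14 probes overall were called. In this fit 8 members had an unadjusted p under 0.05 (19%, beside 22.3% of all probes). Scaling by quantiles or medians moved the median of all probes by 0.05 and 0.06.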

Other observations

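Genes outside the report's lists of members showed the same array as *Mgst1*. *Gsta3*, an alpha class transferase, was at -0.30 on βUCP2Tg replicate 3 and between -5.07 and -3.72 on the other arrays. *Gsta2* was at -4.69 there, well above background on that array only, and between -8.15 and -7.57 elsewhere. The values of both genes were seen before they were chosen here.

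The means of 6 other cell type lists were compared between the groups. The mean of the ductal markers was 1.29 to 1.34 on the βUCP2Tg arrays and 1.02 to 1.95 on the WT arrays (two-sided exact permutation test, p = 0.143). The mean of the delta and PP cell markers was 5.72 to 5.92 against 5.36 to 5.72 (exact permutation p = 0.0571), and that of the alpha cell markers 3.19 to 3.35 against 2.95 to 3.19 (exact permutation p = 0.0571). The mean of the endothelial markers was 0.39 to 0.55 against -0.02 to 0.54 (exact permutation p = 0.114), and that of the mesenchymal markers -1.18 to -0.87 against -1.97 to -0.56 (exact permutation p = 0.914). The mean of the macrophage and leukocyte markers was 0.20 to 0.61 against 0.55 to 1.03 (exact permutation p = 0.0857), and *Cd14*, a receptor for bacterial lipopolysaccharide, was the 1 marker called in these lists (4.29-fold higher in WT, adjusted p = 0.048 by limma). The p-values are not adjusted over the lists, and the part of other cells in the members' values was not tested.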
